A study of Mus musculus with 6 samples.

Results

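Nodal, Gdf3, Tdgf1, Lefty1, Lefty2, Cer1, Acvr1b, Acvr2a and Acvr2b encode the ligands, co-receptor, secreted antagonists and receptors of the Nodal pathway. The 9 genes were listed by name as parts of this pathway, with no threshold on their values, but with earlier results of these data known. Each had 1 of the 23235 entries of the expression table. RNA-seq was carried out on the mouse E14Tg2a line at passages 37 to 40, in 3 samples of Embryonic Stem Cells kept with Leukemia Inhibitory Factor (ESCs, LIF) and 3 samples of Neuronal Cells (NCs). The NCs were monolayers of the same line that had been without LIF and with 1 µM Retinoic Acid (RA) for 48 h. The table gives 1 FPKM value (fragments scaled to transcript length and to the number of mapped fragments) per gene and condition, pooled by the authors over the 3 samples. It therefore holds no spread between samples. No SD could be computed and no test was made here, and each ratio compares 1 pooled value with another.

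Nodal is a secreted ligand of the TGFβ family that signals through a complex of type I and type II activin receptors and needs an EGF-CFC co-receptor such as Cripto. The activated receptors phosphorylate Smad2 and Smad3, which enter the nucleus with Smad4 and act on target genes together with factors such as Foxh1. Nodal and the Lefty genes are themselves targets of the pathway, so that in embryos the ligand and its diffusible inhibitors form a feedback loop, which patterns the mesendoderm and the left-right axis. The pathway is known to be active in pluripotent cells, and its inhibition is known to favour neural fates.

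The upstream sequences of Tdgf1, Nodal and Acvr2a are shown because Tdgf1 had the lowest ratio of the 9 genes, Nodal is the ligand that names the pathway, and Acvr2a was the member counted as higher in NCs. RefSeq windows of 250 bases upstream of the start (GRCm38.p6) matched 6 of the 9 genes, namely Tdgf1, Nodal, Cer1, Acvr1b, Acvr2a and Acvr2b. The windows were read after the expression values had been seen. Capitals in the Tdgf1 window (chr9:110946159-110946408, minus strand) mark GGGCGTGG, a GC-rich element of the kind that KLF and SP factors bind. Capitals in the Nodal window (chr10:61417722-61417971, plus strand) and in the Acvr2a window (chr2:48813859-48814108, plus strand) mark each CG dinucleotide.
Tdgf1: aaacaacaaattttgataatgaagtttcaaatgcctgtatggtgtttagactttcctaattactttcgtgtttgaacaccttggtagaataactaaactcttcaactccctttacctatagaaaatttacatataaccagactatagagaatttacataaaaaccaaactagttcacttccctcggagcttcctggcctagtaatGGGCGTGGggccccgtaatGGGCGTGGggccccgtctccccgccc
Nodal: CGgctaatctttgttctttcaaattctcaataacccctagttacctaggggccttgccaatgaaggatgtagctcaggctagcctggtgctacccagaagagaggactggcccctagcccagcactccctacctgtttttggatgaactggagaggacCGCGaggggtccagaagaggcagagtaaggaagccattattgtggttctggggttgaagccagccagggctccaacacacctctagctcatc
Acvr2a: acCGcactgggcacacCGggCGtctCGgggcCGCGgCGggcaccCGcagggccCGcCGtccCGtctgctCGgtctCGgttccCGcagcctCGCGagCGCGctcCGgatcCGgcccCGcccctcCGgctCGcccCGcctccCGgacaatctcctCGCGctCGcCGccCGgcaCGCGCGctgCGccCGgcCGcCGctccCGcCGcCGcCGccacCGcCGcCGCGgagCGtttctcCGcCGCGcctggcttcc
The windows differed in base composition. The GC content was 42.0% for Tdgf1, with 7 CG dinucleotides, and 53.2% for Nodal, with 3 CG dinucleotides. It was 82.0% for Acvr2a, with 49 CG dinucleotides. Over all 32851 RefSeq windows of this length the medians were 52.4% and 6. The 3 receptor genes had the most GC-rich windows of the 6, with 78.8% for Acvr1b and 72.8% for Acvr2b, whereas Cer1 had 51.6%.

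Short motifs were searched as letters on both strands. GGGCGTGG was present 2 times in the Tdgf1 window and in no other of the 6, and 4.79% of all windows hold it at least 1 time. The 2 copies in the Tdgf1 window lie in a stretch that is repeated in tandem. CAGAC, a sequence bound by Smads, was in 4 of the 6 windows, those of Tdgf1, Cer1, Acvr2a and Acvr2b, and in 42.2% of all windows. CCGCCC, another GC box, was in 4 windows (Tdgf1, Acvr1b, Acvr2a and Acvr2b) and in 32.7% of all windows. In none of the 6 windows were the letters AATCCACA (the FOXH1 core, 0.718% of all windows), AATNCACA (the same core with 1 free base, which includes the former, 3.18%), GTCTAGAC (a Smad palindrome, 0.167%), ATGCAAAT (the octamer, 1.60%), AGGTCA (a core of nuclear receptor sites, 14.0%) or TATAAA (12.4%). The distal enhancers through which Nodal and the Lefty genes are known to respond to the pathway lie outside these windows.

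The labels were first compared with marker genes. All 6 pluripotency markers were at least 2-fold lower in NCs, with a summed level of 1773 FPKM in ESCs against 154 in NCs, and Pou5f1 had 832 FPKM in ESCs against 37.1 in NCs. All 5 genes that respond to RA were higher in NCs, with sums of 7.36 and 710.4 FPKM. Of the 7 neural markers 6 passed the filter described below. Sox1 and Pax6 were among those higher in NCs and Tubb3, a tubulin of neurons, was lower, with 33.4 FPKM in ESCs against 7.54 in NCs. Nes (12.9 and 18.3 FPKM) and Map2 (3.18 and 2.35 FPKM) were within 2-fold. The NC samples thus had the RA response, while the neural markers were mixed, with 3 higher, 1 lower and 2 within 2-fold. Markers of other cell types were mixed. Of the primitive endoderm markers Afp had 0.0871 FPKM or less in both conditions, while Dab2 had 9.0 and 19.3 FPKM and Gata4, Gata6 and Amn had 2.37 to 5.48 FPKM. Of the trophoblast markers Cdx2 and Elf5 had 0.353 FPKM or less, while Tfap2c had 34.0 and 4.59 FPKM and Krt7 had 4.47 and 6.59 FPKM. In bulk samples fewer cells of a type and less RNA per cell cannot be told apart.

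A gene was counted as higher or lower in NCs when the FPKM differed at least 2-fold without a pseudocount and the mean of both conditions was at least 1 FPKM. Of the 9 genes 8 passed this filter. Tdgf1, Lefty1, Lefty2, Nodal and Gdf3 were lower in NCs, Acvr2a was higher, and Acvr1b and Acvr2b were within 2-fold. Over the 12784 entries of the whole table that passed, 9.93% were at least 2-fold lower and 11.1% at least 2-fold higher in NCs. The 5 lower genes were also at least 4-fold lower, where the share over all entries was 3.33%. The median log2 ratio of the 8 genes was -2.24, against -0.04 over all entries that passed. The sum of FPKM over all entries was 770592 in ESCs and 628679 in NCs. Setting both sums equal raises every log2 ratio by 0.29 and moves the share of higher values among all entries past 2-fold from 52.8% to 70.8%. The counts of 5 lower genes and 1 higher gene past 2-fold were the same on that scale. Nodal (-1.97) and Gdf3 (-1.92) were then within 4-fold, which left 3 genes past it, and Nodal was also within 4-fold with a pseudocount of 1 FPKM.

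**Figure D1:**
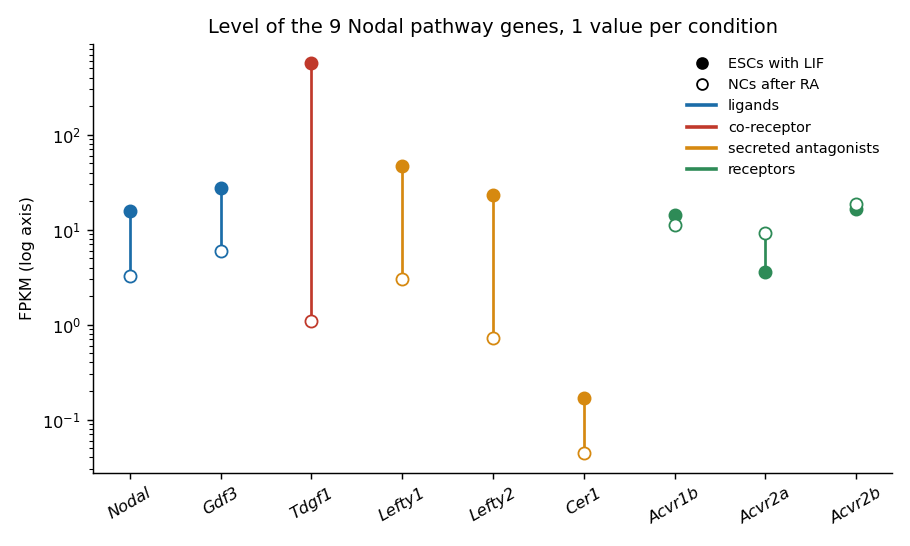
Level of each of the 9 genes in ESCs (filled circles) and NCs (open circles) as the authors' FPKM on a log axis, with 1 pooled value per condition and no error bars. The secreted factors and the co-receptor had lower values in NCs, from 4.63-fold for Gdf3 to 513-fold for Tdgf1 among the genes that passed the filter, whereas the pairs of circles of the receptors Acvr1b and Acvr2b lie close together and Acvr2a is higher in NCs.

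The ligands were measured first. Nodal (chr10:61417972-61425338 on the plus strand of GRCm38, 3 exons) had 15.6 FPKM in ESCs against 3.24 in NCs, a 4.82-fold lower value. Gdf3 (chr6:122605403-122610087, minus strand, 2 exons), a Vg1-related ligand that is known to act with Nodal, had 27.4 FPKM in ESCs against 5.93 in NCs and was 4.63-fold lower. Both ligands kept nearly the same proportion, since the level of Gdf3 was 1.76 times that of Nodal in ESCs and 1.83 times in NCs. Their summed level was 43.0 FPKM in ESCs against 9.17 in NCs. Neither was near 0 in NCs.

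Tdgf1 (chr9:110939603-110946158, minus strand, 6 exons) encodes Cripto, the membrane-anchored co-receptor through which Nodal engages the activin receptors. It had 563.7 FPKM in ESCs against 1.10 in NCs and was 513-fold lower, a log2 ratio of -9.00. Among the 12784 entries that passed the filter, 33 had a ratio this low or lower, itself included. In ESCs its level was 36.1 times that of Nodal and 39.3 times that of Acvr1b. In NCs it was 0.339 times that of Nodal, and the level of Acvr1b was 10.2 times that of Tdgf1. Of the 50-base stretches of the Tdgf1 transcripts 8.86% also occur in the pseudogene Tdgf1-ps1, so that part of its reads could have been assigned elsewhere.

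**Figure D2:**
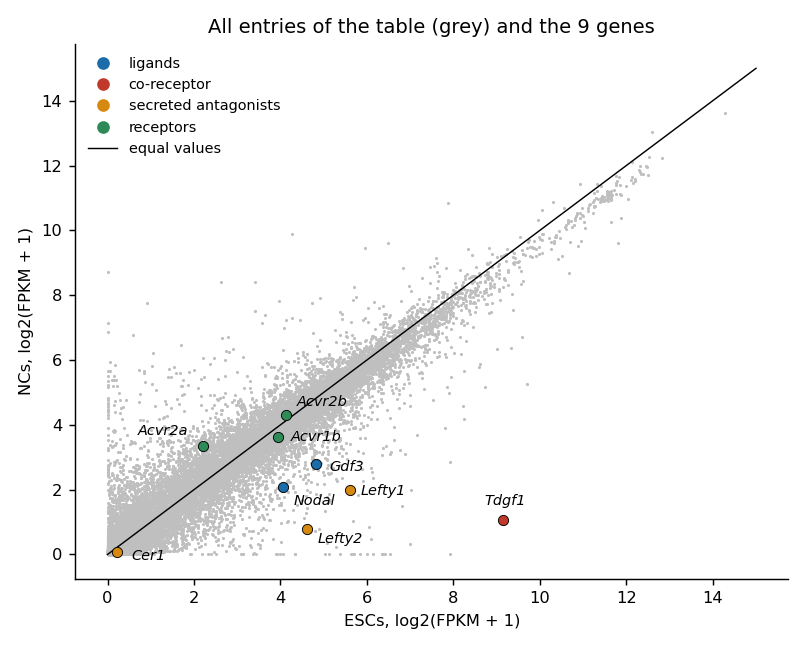
Level of every entry of the table in ESCs (horizontal axis) and NCs (vertical axis) as log2(FPKM + 1), with all 23235 entries in grey, the 9 genes coloured by role and a line of equal values. Tdgf1 lies at the far right near the bottom (563.7 and 1.10 FPKM), Lefty1, Lefty2, Nodal and Gdf3 lie below the line, and the 3 receptors lie within the grey cloud.

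Lefty1 and Lefty2 encode secreted TGFβ-family proteins that bind Nodal or its co-receptor and block signaling. Lefty1 (chr1:180935022-180938400, plus strand, 4 exons) had 47.5 FPKM in ESCs against 3.0 in NCs, which is 15.8-fold lower. Lefty2 (chr1:180893108-180899103, plus strand, 4 exons) had 23.4 FPKM in ESCs against 0.726 in NCs, which is 32.3-fold lower. Both ratios were lower than that of Nodal, with 97 entries at or below the ratio of Lefty1, 58 at or below that of Lefty2 and 335 at or below that of Nodal. The summed level of the pair was 4.54 times that of Nodal in ESCs and 1.15 times in NCs. Within the pair, Lefty1 had 2.03 times the level of Lefty2 in ESCs and 4.14 times in NCs.

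The pair lies in tandem, with 35918 bases between the end of Lefty2 and the start of Lefty1. Their coding sequences were identical at 1014 of 1104 aligned bases (91.8%). Of the 50-base stretches of their transcripts, 17.9% of those of Lefty1 and 12.0% of those of Lefty2 occur in the other gene. The split of reads between them, and hence their ratio to each other, is therefore uncertain, while both had lower values in NCs.

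Cer1 (chr4:82881751-82885148, minus strand, 2 exons), a secreted cysteine-knot protein that binds Nodal and BMPs and is known from the anterior visceral endoderm, had 0.169 FPKM in ESCs against 0.0442 in NCs. Its mean did not pass the filter, so no ratio is counted for it. It was the lowest of the 9 genes in both conditions. With the size of 1 fragment estimated from the lowest values of the table, its level corresponded to 18.9 to 21.7 fragments in ESCs and 5.05 to 9.60 in NCs. These estimates rest on an assumed fragment length of 200 bases. They also rest on 2 frequent low values per condition, scaled to transcript length, which give the ends of each range. These steps were 0.012 and 0.0138 in ESCs and 0.0071 and 0.0135 in NCs, and were taken from the same low values. Only 113 of 202 low values in ESCs and 163 of 270 in NCs lay within 0.0002 of either step.

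The receptors differed from the secreted factors and the co-receptor in these values. Acvr1b (chr15:101174067-101213684, plus strand, 9 exons), the type I receptor that phosphorylates Smad2 and Smad3, had 14.4 FPKM in ESCs against 11.2 in NCs, a log2 ratio of -0.35. Acvr2b (chr9:119402118-119434995, plus strand, 11 exons), a type II receptor, had 16.5 FPKM in ESCs against 18.8 in NCs, a log2 ratio of 0.19. Both were within the 2-fold limit. Acvr2a (chr2:48814109-48903269, plus strand, 11 exons), the other type II receptor, had 3.62 FPKM in ESCs against 9.25 in NCs and was 2.55-fold higher.

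The 3 receptors together had 34.5 FPKM in ESCs against 39.3 in NCs. Acvr2b had 4.57 times the level of Acvr2a in ESCs and 2.03 times in NCs. The summed level of both type II receptors was 1.29 times that of Nodal in ESCs and 8.66 times in NCs. Acvr2a overlaps Orc4 on the opposite strand by 446 bases, and 6.98% of its 50-base stretches lie in Orc4. Whether the counting used strand is not given in the sources used here, so reads of that stretch cannot be assigned to either gene. Orc4 had 18.2 FPKM in ESCs against 15.6 in NCs, a lower value in NCs within 2-fold. The coding sequences of Acvr2a and Acvr2b were identical at 65.5% of aligned bases. They shared no 50-base stretch.

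The order of the levels therefore differed between the conditions. In ESCs it ran, from high to low, Tdgf1, Lefty1, Gdf3, Lefty2, Acvr2b, Nodal, Acvr1b, Acvr2a and Cer1. In NCs it ran Acvr2b, Acvr1b, Acvr2a, Gdf3, Nodal, Lefty1, Tdgf1, Lefty2 and Cer1, so that the 3 receptors stood above all secreted factors. Without a spread between samples, neighbours in these orders, such as Acvr2b and Nodal in ESCs or Nodal and Lefty1 in NCs, cannot be separated.

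The other genes of the pathway were taken as a list of 46, all in the table, of which 35 passed the filter. Of these 35, 3 were lower and 13 higher in NCs and 19 were within 2-fold, with a median log2 ratio of 0.17. The shares over all entries were 9.93% and 11.1%. The 3 lower genes were Otx2, Skil and Foxh1. Of the higher ones, Inha, Tgfb2, Tgfb3, Gdf11, Tgfbr2, Lhx1, Foxa2 and Sox17 were under 1 FPKM in ESCs. These passed the filter only through their NC value, as Otx2 did only through its ESC value. With a mean of at least 5 FPKM, 3 were lower and 4 higher, against 734 and 634 over all entries.

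Among the other ligands, 4 of the 6 that passed were higher in NCs and none was lower. Tgfb3 had 0.363 FPKM in ESCs against 3.24 in NCs. Gdf11, a ligand that also signals through Smad2 and Smad3, had 0.802 and 4.36 FPKM. Tgfb2 had 0.708 and 2.06 FPKM, and Inha, the inhibin α subunit, had 0.866 and 2.32 FPKM. These 4 genes were under 1 FPKM in ESCs, and in NCs Tgfb3 and Gdf11 had levels close to that of Nodal. With a pseudocount of 1 FPKM, Tgfb2 (log2 ratio 0.84) and Inha (0.83) were within 2-fold, while Tgfb3 and Gdf11 stayed past it. Gdf1 and Tgfb1 were within 2-fold. Inhbb, the activin βB subunit, had 1.88 FPKM in ESCs against 0.102 in NCs, with a mean just under the filter.

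Of the other receptors, Tgfbr1, the type I receptor for TGFβ, had 8.27 FPKM in ESCs against 19.7 in NCs. Tgfbr2, its type II partner, had 0.725 and 1.51 FPKM. Both were higher in NCs, but Tgfbr2 was within 2-fold with a pseudocount of 1 FPKM (log2 ratio 0.54). Cfc1, which encodes Cryptic, the EGF-CFC relative of Cripto, had 1.25 FPKM in ESCs against 0.618 in NCs and did not pass the filter. No co-receptor of this family thus exceeded 1.10 FPKM in NCs. Acvr1c, a further type I receptor for Nodal, was listed at 0 in ESCs and had 0.0170 FPKM in NCs. The extracellular inhibitor Fst, which binds activins, had 1.46 FPKM in ESCs against 3.86 in NCs and was higher. With a pseudocount of 1 FPKM it was just within 2-fold (log2 ratio 0.98). Dand5, a Cerberus relative, had 3.01 and 3.04 FPKM. Furin and Pcsk6, the convertases that cleave the Nodal precursor, were within 2-fold, with 10.5 and 14.5 FPKM for Furin and 4.93 and 3.63 FPKM for Pcsk6.

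The intracellular genes were mostly within 2-fold. Smad2 had 10.7 FPKM in ESCs against 13.7 in NCs and Smad4 had 32.7 and 44.0 FPKM, whereas Smad3 had 6.99 and 17.0 FPKM and was higher in NCs. Foxh1, the DNA-binding partner of Smad2 in the Nodal response, had 35.8 FPKM in ESCs against 17.7 in NCs, a ratio just past the limit that was within it with median centring or equal sums. Of the 11 negative regulators, all of which passed the filter, 9 were within 2-fold. Skil (SnoN), a Smad co-repressor, had 36.5 and 16.1 FPKM and was lower, but within the limit with equal sums, while its relative Ski had 25.6 and 55.6 FPKM and was higher. Smad7, an inhibitory Smad induced by the pathway, had 7.0 FPKM in ESCs against 3.97 in NCs, within 2-fold.

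Targets of the pathway went in both directions. Otx2, a homeodomain factor of the anterior neuroectoderm and epiblast, had 37.8 FPKM in ESCs against 0.166 in NCs and was 228-fold lower. Lhx1, Foxa2 and Sox17 were among the targets with higher values in NCs. Lhx1 had 0.108 and 3.39 FPKM and Foxa2, a factor of endoderm and floor plate, had 0.617 and 5.24 FPKM. Sox17, an endoderm factor, had 0.861 and 4.0 FPKM. Fgf8 and Hhex were within 2-fold. The mesendoderm targets Gsc, Mixl1, Eomes, T and Wnt3 did not pass the filter, and the highest of their values was 1.25 FPKM, that of Eomes in ESCs.

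**Figure D3:**
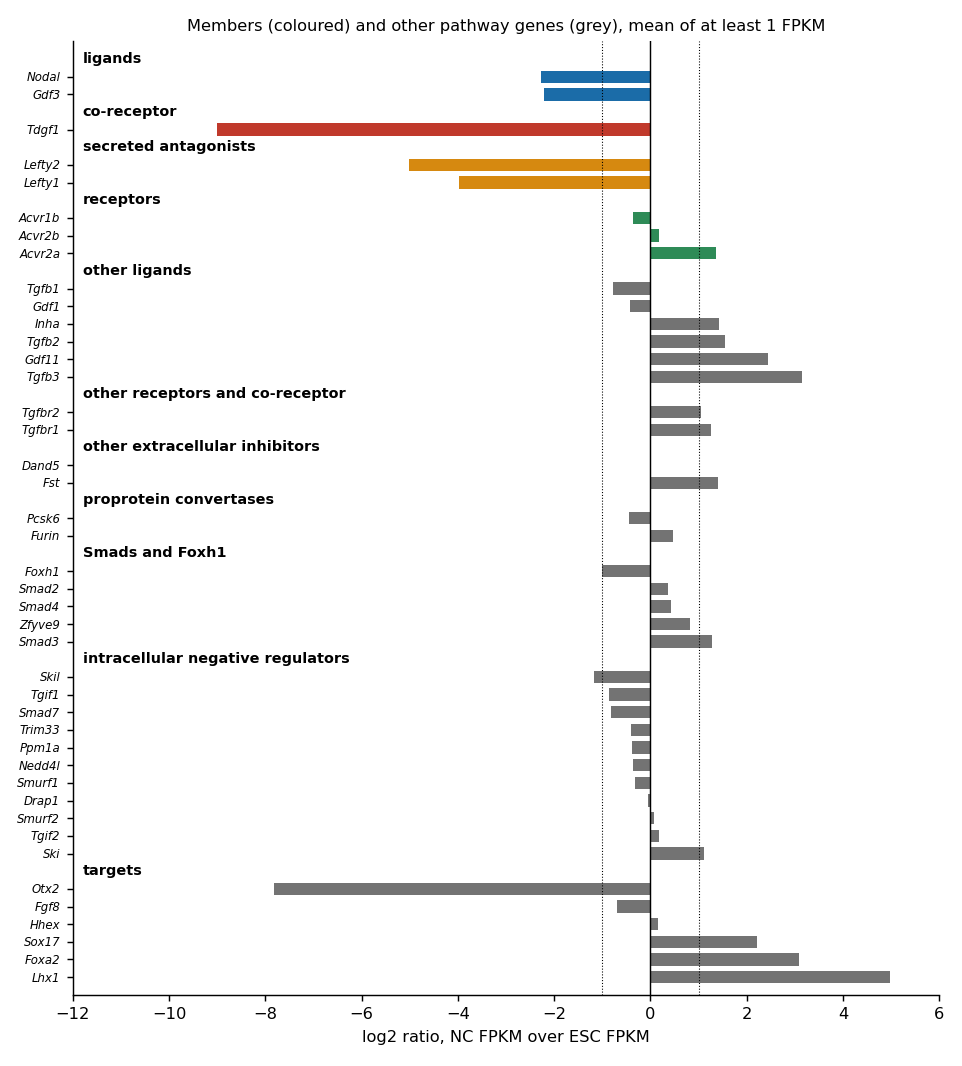
Log2 ratio of the NC to the ESC FPKM for the 8 of the 9 genes (coloured) and other pathway genes (grey) with a mean of at least 1 FPKM, grouped by role, with dotted lines at the 2-fold limit. The long bars to the left are those of Tdgf1 (-9.00), Otx2 (-7.83), Lefty2 (-5.01) and Lefty1 (-3.98), and most Smads and negative regulators lie between the dotted lines, while of the receptors Acvr1b and Acvr2b do and Acvr2a, Tgfbr1 and Tgfbr2 lie past the upper one.

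Markers of other cell types again went in different directions. Of the 6 primitive endoderm markers 5 passed the filter and 3 were higher in NCs (Gata6, Sox7 and Dab2), while Gata4 and Amn were within 2-fold. With a pseudocount of 1 FPKM, Gata6 (log2 ratio 0.94) and Sox7 (0.54) were within 2-fold too. The summed level of the 6 was 18.5 FPKM in ESCs against 33.0 in NCs, beside the higher values of Foxa2 and Sox17. Of the 5 fibroblast markers 4 passed. Col1a1, Col1a2 and Col3a1 were higher and Thy1 was lower, with a sum of 19.6 and 41.9 FPKM, beside the higher values of Tgfb2 and Tgfb3. The sum of the 5 trophoblast markers was 39.4 FPKM in ESCs against 12.1 in NCs, most of it Tfap2c, which germ cells and epiblast also express. The part of these cell types in the pathway values was not tested.

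The genes nearest to Nodal and Tdgf1 in level were found by the distance between log2(FPKM + 1) values over the 2 conditions only. For Nodal they were Cd97 (15.6 FPKM in ESCs against 3.45 in NCs, a distance of 0.0689), Cd68 (14.8 and 3.30 FPKM, 0.0741) and Chmp4c (14.7 and 3.01 FPKM, 0.113). For Tdgf1 they were Mir302c (243 FPKM in ESCs and listed at 0 in NCs, 1.62), Trh (239.8 and 6.28 FPKM, 2.18) and Kis2 (128 and 0.245 FPKM, 2.26). Nodal thus had close neighbours in level, while all 3 genes nearest to Tdgf1 had a much lower ESC level than its 563.7 FPKM.

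Genes that lie at least in part within 100 kb of the 9 genes were examined after the values had been seen. Around the 5 lower genes 15 neighbours passed the filter, of which 8 were lower in NCs and 0 higher, against 9.93% and 11.1% over all entries. Beside Gdf3 lie Apobec1 (7.60 FPKM in ESCs against 1.13 in NCs), Dppa3 (58.6 and 7.85 FPKM) and Nanog (225 and 13.9 FPKM), the last of them one of the pluripotency markers above. All 3 were lower. Lrrc2, the nearest of these genes to Tdgf1 by start, had 11.1 FPKM in ESCs against 0.759 in NCs. Tmie, Als2cl and Prss50, farther away, were within 2-fold. Around the Lefty pair, Tmem63a (7.77 and 3.82 FPKM) and Ephx1 (15.1 and 2.00 FPKM) were lower, while Sde2 and H3f3a were not. The log2 ratio of Tmem63a (-1.02) was just past the limit, and within it with median centring or equal sums. Beside Nodal, Pald1 had 49.98 FPKM in ESCs against 13.9 in NCs. Genes in 1 neighbourhood share their locus and are not independent of each other.

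**Figure D4:**
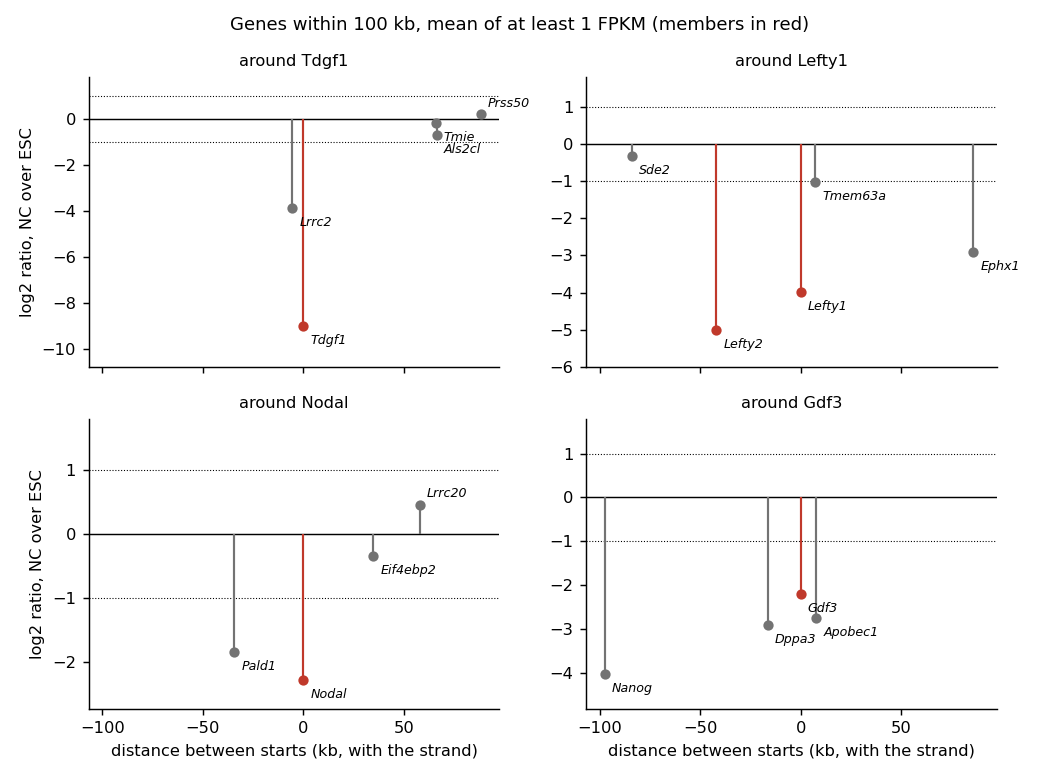
Log2 ratio of the NC to the ESC FPKM for genes around Tdgf1, Lefty1, Nodal and Gdf3, by distance between gene starts in kb along the strand of the named gene, with genes of the pathway set in red, others in grey and dotted lines at the 2-fold limit. The vertical scale differs between the panels. Not every gene in the windows is drawn. All 3 neighbours shown around Gdf3 lie under the lower dotted line, as do Tmem63a and Ephx1 around Lefty1, and 1 neighbour does so around each of Tdgf1 and Nodal.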

How the data were processed

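RNA was sequenced in 3 ESC and 3 NC samples of E14Tg2a cells. Per the submitters' notes and the study's methods, the authors used TopHat2 (2.0.8) to align reads to mm10, with Bowtie2 (release 2.1.0) beneath it, and then Cufflinks (2.0.2) and Cuffdiff. The deposited table holds the authors' FPKM, 1 value per gene and condition, and no values per sample. The NC column is headed FPK and was taken as FPKM. The Cuffdiff version, its normalization option and the gene annotation release are not given in the sources used here. The table's columns with the authors' own comparison (fold change, test statistic, p-values and significance marks) were not used.

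Ratios were computed without a pseudocount for entries with a mean of at least 1 FPKM and called at 2-fold. Fragment totals per sample are unknown, so no counting interval is given. The genes named were the 9 members, genes of the pathway and marker lists, and the 3 genes nearest to Nodal and Tdgf1. A few genes that this rule takes in enter the totals but are not named or drawn here. Promoter windows, shared sequence, fragment steps, ratios between genes, genomic neighbours and the genes named from them were chosen after the values were seen. The members and lists were chosen with earlier results of these data known. Gene positions and overlaps come from GENCODE M21 (GRCm38) and promoter windows from RefSeq. Python 3.11.15, numpy 2.4.6, pandas 2.3.3, matplotlib 3.10.9 and Biopython 1.88 were used. The ratio step was run on NC values simulated from ESC values of at least 1 FPKM, with planted 4-fold changes. That run left out the mean filter and lower ESC values.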

Additional observations from a re-analysis of the deposited data

How the results depend on the processing

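No paired analysis was possible because the table holds 1 value per condition. For the same reason no replicate could be left out and no replicate block was fitted. At the 2-fold limit or the limit named, with 1 choice changed at a time, the count of 5 lower members was the same with pseudocounts of 0.1 and 1 FPKM, median centring, equal FPKM sums, summed entries, limits of 1.5-fold and 4-fold and a mean of at least 5 FPKM. It was 6, with Cer1, with no filter or a mean of at least 0.1 FPKM. The 1 higher member, Acvr2a, gave a count of 0 at the 4-fold limit. The 3 lower genes among the other pathway genes became 2 with a pseudocount of 1 FPKM or with median centring, and 1 with equal sums. That count was 7 at 1.5-fold, 1 at 4-fold, and 6 with no filter or a mean of at least 0.1 FPKM. The 13 higher ones became 12 and 9 with pseudocounts of 0.1 and 1 FPKM, and 14 with equal sums. Their count was 14 at 1.5-fold and 5 at 4-fold. It was 15 with no filter, 14 with a mean of at least 0.1 FPKM and 4 with a mean of at least 5 FPKM. Over all entries, 2400 were lower and 2471 higher at 1.5-fold, 426 and 537 at 4-fold, 2880 and 3861 with no filter, 1944 and 2458 with a mean of at least 0.1 FPKM, and 734 and 634 with a mean of at least 5 FPKM. These limits and filters take in more or fewer genes by construction. Over the scalings and pseudocounts the log2 ratio of Tdgf1 ran from -9.00 to -8.07, that of Lefty2 from -5.01 to -3.82, that of Lefty1 from -3.98 to -3.60, that of Nodal from -2.27 to -1.97, that of Gdf3 from -2.21 to -1.92 and that of Acvr2a from 1.15 to 1.65. The spread between samples is unknown, which limits every ratio here.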

Other observations

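Around the other 4 genes of the set (Cer1, Acvr1b, Acvr2a and Acvr2b), 12 neighbours within 100 kb passed the filter, of which 1 was lower and 3 were higher in NCs. Over all entries that passed, 9.93% were lower and 11.1% higher. The lower one was Nr4a1, which encodes the nuclear receptor Nur77 and starts 80.2 kb from Acvr1b. It had 14.5 FPKM in ESCs against 5.24 in NCs, a 2.77-fold lower value. Fignl2, on the other side of Acvr1b, had 6.73 FPKM in ESCs against 29.4 in NCs and was 4.37-fold higher. Mbd5, next to Acvr2a, had 1.10 and 3.21 FPKM and was also higher. Myd88 and Oxsr1, near Acvr2b, were within 2-fold. These genes were chosen after their values were seen, and the difference from the neighbours of the 5 lower genes was not tested.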
